A study of Mus musculus with 32 samples.

Results

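P4ha3 and Mmp13 are 2 genes that act at opposite ends of a collagen molecule's life, 1 in its making and 1 in its breakdown. They are 2 of 26305 genes that carry an Ensembl identifier in the lung RNA-seq data described here. Both were selected on measured values of these same mice, so their levels and group differences are given as a description, with no p-value. Whether either was among the genes called over the whole table is stated, but nothing is read from it. Over 16 mouse lungs P4ha3 averaged 0.293 FPKM (fragments per kilobase of a transcript, set relative to all fragments that mapped) and Mmp13 averaged 0.167 FPKM. The median of P4ha3 was higher in lungs given World Trade Center dust with rosoxacin and in lungs given dust alone than in unexposed lungs. Which of those dust groups was highest depended on how lanes listed at 0 were treated. Mmp13 had its lowest median in the rosoxacin lungs, but its groups overlapped throughout. Its difference between dust alone and unexposed lungs was near 0 with both lanes averaged, and the sign of that difference depended on the processing.

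P4ha3 encodes an alpha subunit of collagen prolyl 4-hydroxylase, the enzyme of the endoplasmic reticulum that hydroxylates prolines in new collagen chains with iron, 2-oxoglutarate and ascorbate. Hydroxyproline keeps the collagen triple helix stable at body temperature, and the other alpha subunits are encoded by P4ha1 and P4ha2, with P4hb as the shared beta subunit. Mmp13 encodes collagenase 3, a secreted matrix metalloproteinase that cuts fibrillar collagen across the triple helix and is a main interstitial collagenase of the mouse. Its transcription is known to respond to AP-1 and Runx2 and to cytokines such as interleukin 1, tumor necrosis factor and oncostatin M. Collagen deposition and its turnover by metalloproteinases both belong to the remodeling of lung after inhaled dust.

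In all, 4 groups of 4 wild-type male C57BL/6J mice were compared. The WTCPM+ros mice received World Trade Center particulate matter (WTCPM), dust collected at Ground Zero, by the intranasal route, and rosoxacin, a quinolone antibiotic, at 5 mg/kg into the peritoneum. The WTCPM+dex mice received the same dust and dexamethasone, a synthetic glucocorticoid, at 0.1 mg/kg into the peritoneum. The WTCPM mice received dust alone, and the control mice received neither dust nor drug per the labels. No group received a drug without dust, so the data hold no drug effect in unexposed lung, and no vehicle is named in the labels. Each mouse gave 1 library sequenced on 2 lanes, and the 2 lanes were averaged so that n counts mice.

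The deposited table gives FPKM for 186512 transcripts, and the sources used here give no read counts. The FPKM of a mouse summed to 924277 to 1329954 in WTCPM+ros, 763725 to 861652 in WTCPM+dex, 742168 to 803130 in WTCPM and 704683 to 1099603 in control. Genes with an Ensembl identifier hold 0.114% of all FPKM and the highest of them averaged 4.05 FPKM. The rest lies in 28335 assembled loci that the files do not pair with gene names. The level of P4ha3 was above that of 96.4% of the genes with an identifier, and the level of Mmp13 above that of 93.1%. Among the 2749 of them that averaged at least 0.1 FPKM, P4ha3 was above 65.1% and Mmp13 above 34.2%. Both are thus low in absolute terms, and most genes with an identifier are lower still. Where a transcript of either gene had been merged into an unnamed locus, its reads are not counted here.

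P4ha3 (ENSMUSG00000051048.17) lies on the plus strand at chr7:100285520-100319699 of mm10 and Mmp13 (ENSMUSG00000050578.10) on the plus strand at chr9:7272514-7283331, both as annotated in GENCODE M21. Both are protein-coding and neither is overlapped by another annotated gene. Mmp13 has 1 annotated transcript of 2673 bases, and P4ha3 has 5 annotated transcripts and 5 rows in the table. The 250 bases before each annotated start are printed below, as RefSeq gives them on GRCm38.p6, because glucocorticoids such as dexamethasone are known to repress collagenase genes through AP-1, whose site can be read in these letters. The windows are chr7:100285270-100285519 for P4ha3 and chr9:7272264-7272513 for Mmp13, on the plus strand. In P4ha3 capitals mark the GC box, written GGGCGG. In Mmp13 they mark a Runx motif, spelled AACCACA. Nearer the start they mark the AP-1 motif, for which TGANTCA was searched. Last comes a TATA box, searched as TATAAA.
P4ha3: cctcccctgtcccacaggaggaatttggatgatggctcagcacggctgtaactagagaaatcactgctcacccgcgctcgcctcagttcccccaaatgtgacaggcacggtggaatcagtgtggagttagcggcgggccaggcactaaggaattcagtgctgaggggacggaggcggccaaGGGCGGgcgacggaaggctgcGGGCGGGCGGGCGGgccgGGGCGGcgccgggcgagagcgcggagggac
Mmp13: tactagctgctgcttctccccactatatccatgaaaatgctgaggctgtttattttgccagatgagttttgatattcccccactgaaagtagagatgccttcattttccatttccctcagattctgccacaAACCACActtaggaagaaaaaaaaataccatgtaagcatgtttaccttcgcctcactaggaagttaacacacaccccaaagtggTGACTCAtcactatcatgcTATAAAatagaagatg
Both strands were searched for all 4 motifs. The Mmp13 window holds AP-1 once, 35 bases before the start, Runx once, 119 bases before it, and the TATA box once, 16 bases before it. The P4ha3 window holds none of these letters. It holds the GC box 5 times, with matches that overlap each other, and the Mmp13 window holds no GC box. Among 32851 such windows of all genes, 6.75% hold the AP-1 letters, 4.4% the Runx letters, 12.4% the TATA box and 32.7% the GC box. The share of G and C is 67.2% in the P4ha3 window and 40.4% in the Mmp13 window, against a median of 52.4% over all windows. These are letters in a window, and no factor's binding was measured.

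P4ha3 was detected in every mouse. Its level in mice 1 to 4 was 0.373, 0.574, 0.367 and 0.416 FPKM in WTCPM+ros. In WTCPM+dex it was 0.24, 0.257, 0.233 and 0.148 FPKM, in WTCPM 0.701, 0.327, 0.333 and 0.179 FPKM, and in control 0.095, 0.21, 0.128 and 0.103 FPKM. All 4 WTCPM+ros mice lay above all 4 WTCPM+dex mice and above all 4 control mice, while the WTCPM mice spread from the level of the dexamethasone mice to the highest value of the study. In order of the medians, WTCPM+ros had 0.394 FPKM, WTCPM 0.33, WTCPM+dex 0.237 and control 0.115 FPKM. Each group overlapped its neighbour in that order, so no neighbouring pair was separated by more than the spread of its mice.

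**Figure D1:**
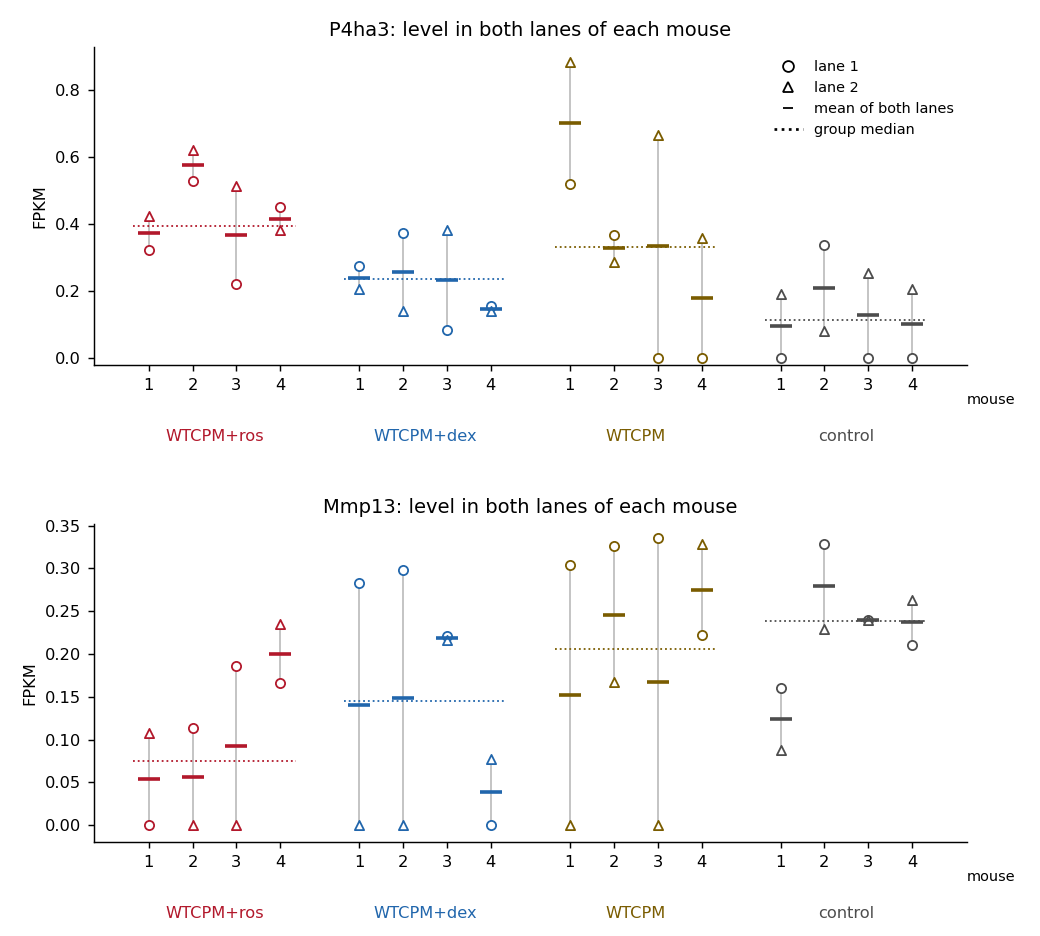
FPKM of P4ha3 (top) and Mmp13 (bottom) in lane 1 (circles) and lane 2 (triangles) of each of 16 mice, with the mean of both lanes (short bars) and the median of the 4 mice of a group (dotted lines). For P4ha3 the 4 WTCPM+ros mice (0.367 to 0.574 FPKM) lie above the 4 control mice (0.095 to 0.21 FPKM); for Mmp13 all groups overlap and several mice have 1 lane listed at 0.

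The lanes behind the P4ha3 values were uneven. In WTCPM+ros no lane of 8 was listed at 0 and the lanes ran between 0.221 and 0.62 FPKM. In WTCPM+dex no lane of 8 was listed at 0 either, and the lanes ran between 0.0842 and 0.382 FPKM. In WTCPM 2 of 8 lanes were listed at 0, both lane 1, in mice 3 and 4 whose other lane gave 0.666 and 0.358 FPKM. In control 3 of 8 lanes were listed at 0, again lane 1, in mice 1, 3 and 4 whose other lane gave 0.19, 0.255 and 0.205 FPKM. An exact 0 in a lane can be a failed estimate, and averaging it with the other lane lowers that mouse's value. With lanes listed at 0 left out, an alternative chosen after seeing the data, the median over mice was 0.394 FPKM in WTCPM+ros, 0.237 in WTCPM+dex, 0.512 in WTCPM and 0.208 in control. On that reading WTCPM had the highest median and WTCPM+ros the next.

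The 5 rows of P4ha3 in the table are not labelled by transcript name and did not contribute alike. One row held 73.2% of the gene's FPKM over the 32 lanes and was above 0 in 22 of them. It carried 90.9% of the gene's FPKM in WTCPM+ros, 68.8% in WTCPM+dex, 60.3% in WTCPM and 59.8% in control, and it was above 0 in 7, 7, 5 and 3 of 8 lanes in those groups. Another row held 19.6%, and 1 more held 7.25% through 1 lane of WTCPM mouse 1 at 0.679 FPKM. That single entry makes up most of the 0.883 FPKM in lane 2 of that mouse, the highest P4ha3 value of any lane. The other 2 rows were listed at 0 in all 32 lanes.

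Mmp13 was also above 0 in every mouse, but in many it rested on 1 lane. Its level in mice 1 to 4 was 0.0539, 0.0568, 0.0928 and 0.2 FPKM in WTCPM+ros. In WTCPM+dex it was 0.141, 0.149, 0.219 and 0.0389 FPKM, in WTCPM 0.152, 0.246, 0.167 and 0.275 FPKM, and in control 0.124, 0.279, 0.24 and 0.237 FPKM. Mice 1 to 3 of WTCPM+ros were lower than every WTCPM and control mouse, while mouse 4 lay within both of those groups. From the lowest median upward, WTCPM+ros had 0.0748 FPKM, WTCPM+dex 0.145, WTCPM 0.207 and control 0.239 FPKM. Every pair of groups overlapped, so no neighbour in that order stood apart beyond its spread.

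Lanes listed at 0 for Mmp13 were more frequent in the drug groups than in control. There were 3 of 8 in WTCPM+ros, 3 of 8 in WTCPM+dex, 2 of 8 in WTCPM and 0 of 8 in control. Mmp13 mice with a lane at 0 include WTCPM+dex mice 1 and 2, whose other lane gave 0.283 and 0.298 FPKM, and WTCPM mice 1 and 3, whose other lane gave 0.304 and 0.335 FPKM. With lanes listed at 0 left out, the median over mice was 0.15 FPKM in WTCPM+ros, 0.251 in WTCPM+dex, 0.29 in WTCPM and 0.239 in control. WTCPM+ros remained the lowest group on that reading, and WTCPM+dex lay above control.

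The coarseness of the Mmp13 values could be judged from the table itself. Low FPKM of genes with 1 transcript clustered at multiples of a fixed step in each lane, which for a transcript of the length of Mmp13 was 0.0133 to 0.0214 FPKM. What 1 step stands for, a read or part of a pair, was not stated. Lanes with Mmp13 above 0 held 5.84 to 12.6 steps in WTCPM+ros, 4.01 to 19.4 in WTCPM+dex, 8.94 to 19.1 in WTCPM and 5.55 to 23.8 in control. Lane 1 of WTCPM+dex mouse 1 held 19.4 steps of Mmp13 and lane 2 of the same library was listed at 0.

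A lane listed at 0 beside a lane above 0 was common among genes near the FPKM of Mmp13. Genes were grouped by FPKM whatever their transcript length, so the shares below do not cover lanes of a given number of steps. Over all genes with an identifier, a lane value between 0.1 and 0.2 FPKM had its other lane listed at 0 in 26.5% of cases, one between 0.2 and 0.4 FPKM in 19.2% and one between 1 and 5 FPKM in 5.8%. Over the tested genes 17.5% of lane values were listed at 0 in WTCPM+ros, 14.3% in WTCPM+dex, 14.9% in WTCPM and 13.7% in control. The WTCPM+ros group therefore had more zeros in general, and the part of this in the Mmp13 level was not tested.

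**Figure D2:**
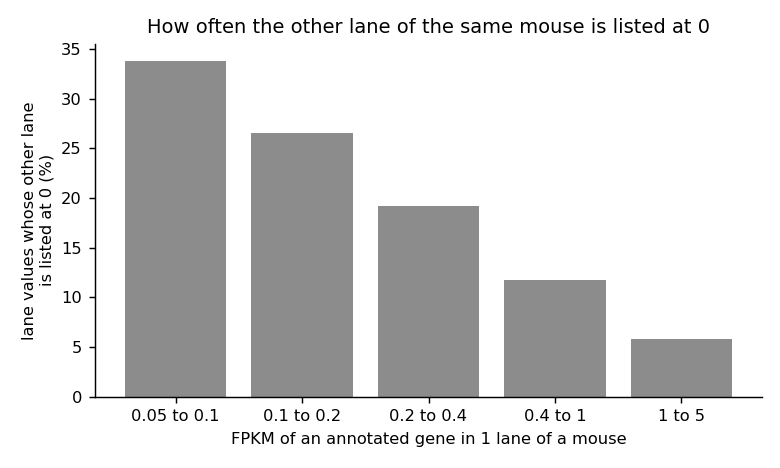
Share of lane values (vertical axis, percent) whose other lane of the same mouse is listed at 0, by the FPKM of the gene in the first lane (horizontal axis), over all genes with an Ensembl identifier. The share is 33.8% at 0.05 to 0.1 FPKM and 5.8% at 1 to 5 FPKM. The means of P4ha3 (0.293 FPKM) and Mmp13 (0.167 FPKM) over the 16 mice lie between these, but some lanes of both genes lie at 0.05 to 0.1 FPKM.

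Differences between groups were taken on log2(FPKM + 0.1), a scale that understates the change of low genes, with the standard error from limma over the 2749 identified genes that averaged at least 0.1 FPKM. For P4ha3 the means of all 3 dust groups were above that of control with both lanes averaged, and WTCPM+dex had the lowest of the 3. The difference was 0.97 ± 0.28 (SE, n = 4 mice a group) for WTCPM minus control and 1.20 ± 0.28 for WTCPM+ros minus control, against medians of 0.03 and -0.11 over all tested genes. For WTCPM+dex minus control it was 0.46 ± 0.28, with a median of 0.02 over all tested genes. Among the dust groups, P4ha3 differed by 0.22 ± 0.28 for WTCPM+ros minus WTCPM (-0.13 after TPM rescaling), by -0.51 ± 0.28 for WTCPM+dex minus WTCPM and by 0.73 ± 0.28 for WTCPM+ros minus WTCPM+dex. With lanes listed at 0 left out, the P4ha3 difference was 0.90 ± 0.23 for WTCPM minus control, 0.74 ± 0.23 for WTCPM+ros minus control and 0.01 ± 0.23 for WTCPM+dex minus control, so WTCPM+dex and control then had nearly the same mean. It was then -0.16 ± 0.23 for WTCPM+ros minus WTCPM, -0.89 ± 0.23 for WTCPM+dex minus WTCPM and 0.73 ± 0.23 for WTCPM+ros minus WTCPM+dex. WTCPM mice 1 and 4 set the comparisons with WTCPM: WTCPM+ros minus WTCPM was 0.50 without mouse 1 and -0.01 without mouse 4, and WTCPM+dex minus WTCPM was -0.23 and -0.74. The comparisons with WTCPM share its 4 mice, and those with control share its 4 mice.

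For Mmp13 the means of WTCPM and control were close on this scale, and both drug groups had lower means than WTCPM and than control. The difference was -0.04 ± 0.30 (SE, n = 4 mice a group) for WTCPM minus control and turned to 0.01 after TPM rescaling. It was -0.66 ± 0.30 for WTCPM+ros minus WTCPM and -0.43 ± 0.30 for WTCPM+dex minus WTCPM, where the medians over all tested genes were -0.16 and 0.00. Against control it was -0.70 ± 0.30 for WTCPM+ros and -0.47 ± 0.30 for WTCPM+dex. Between the drugs, WTCPM+ros minus WTCPM+dex was -0.23 ± 0.30, near the median of -0.15 over all tested genes. With lanes listed at 0 left out, the Mmp13 difference became -0.34 ± 0.27 for WTCPM+ros minus control and -0.04 ± 0.27 for WTCPM+dex minus control, and that for WTCPM minus control became 0.31 ± 0.27. Without WTCPM+dex mouse 4 the Mmp13 difference was -0.19 for WTCPM+dex minus WTCPM and -0.23 for WTCPM+dex minus control. In lung tissue, fewer cells that make a transcript and less transcript per cell cannot be told apart.

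**Figure D3:**
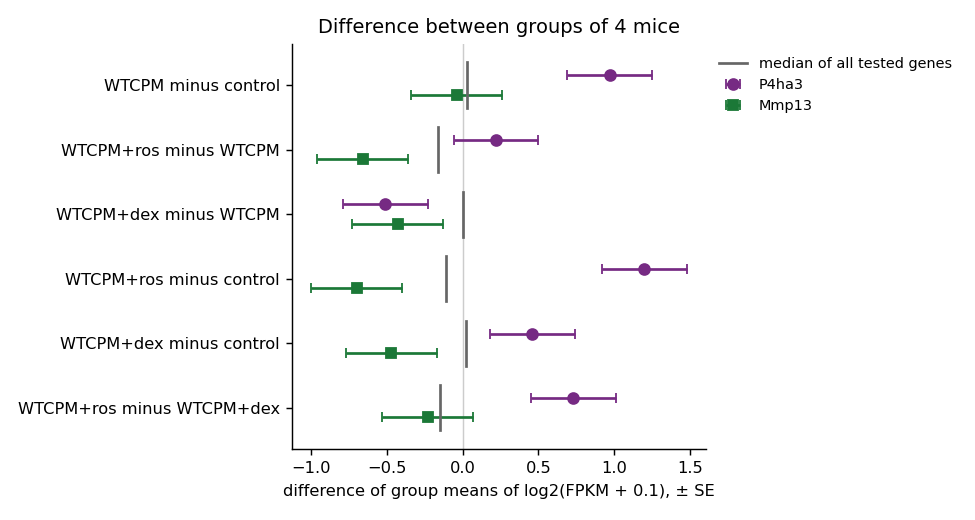
Difference between group means of log2(FPKM + 0.1) for P4ha3 (circles) and Mmp13 (squares) in 6 comparisons of 4 mice each, with bars of 1 SE from limma and a grey tick at the median of all 2749 tested genes. P4ha3 lies between 0.46 and 1.20 against control, and Mmp13 lies between -0.70 and -0.43 where a drug group is set against WTCPM or control.

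Across all tested genes, limma with Benjamini-Hochberg adjustment at 0.05 called 91 genes (3.31%) in WTCPM+ros minus control, and P4ha3 was 1 of them. Mice of WTCPM+ros lay entirely above control for 2.15% of tested genes and entirely above WTCPM+dex for 3.46%, and P4ha3 belongs to both sets. Since P4ha3 was chosen from these values, nothing is read from either count. Its place among the 91 was kept in 5 of 14 other settings and in 9 of 16 fits that left out 1 mouse. It was lost when any 1 of the 4 WTCPM+ros mice or control mouse 1, 3 or 4 was left out, and also in lane 1 alone, in lane 2 alone, with lanes listed at 0 left out, after TPM rescaling or quantile normalisation, at a pseudocount of 1, with the library number as covariate, with no filter and with the 2 groups alone. Mmp13 was called in no comparison and under no alternative, and P4ha3 in no other comparison. The share of tested genes called was 0.546% in WTCPM+ros minus WTCPM, 0.0364% in WTCPM+dex minus control and 4.26% in WTCPM+ros minus WTCPM+dex. In WTCPM minus control and in WTCPM+dex minus WTCPM limma called 0 genes (0%), with 141 and 148 of 2749 at an unadjusted p under 0.05.

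The direction of some of these differences depended on the lane. P4ha3 was higher in WTCPM+ros than in control by 1.69 in lane 1 alone and by 1.07 in lane 2 alone. For WTCPM+ros minus WTCPM it was 1.00 in lane 1 and -0.06 in lane 2, and for WTCPM+dex minus WTCPM 0.38 in lane 1 and -0.99 in lane 2. Mmp13 in WTCPM minus control was 0.26 in lane 1 and -0.68 in lane 2. Its difference for WTCPM+ros minus control was -0.72 in lane 1 and -0.86 in lane 2. The 2 lanes thus gave the same direction for both genes in WTCPM+ros against control. For P4ha3 the signs differed between lanes for both drugs against WTCPM. The SE of P4ha3 was 0.61 in lane 1 and 0.34 in lane 2. The lane 2 value for WTCPM+ros and the lane 1 value for WTCPM+dex were smaller than these, so their signs are uncertain.

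The labels also carry a library number, and rosoxacin mice hold numbers 1 to 4, the lowest of the 16. Rosoxacin and a low library number cannot be told apart between groups. What the number stands for is not stated in the labels. The group means, which chose both genes, were removed for a test within groups: both measures were centred on their group means and all 331776 pairings within groups were enumerated. Library number and P4ha3 gave Pearson r = 0.046 over 16 mice (2-sided exact permutation p = 0.889, adjusted over 3 relations 0.973) and Spearman rho = 0.158 (exact permutation p = 0.613, adjusted 0.919). Library number and Mmp13 gave r = 0.142 (exact permutation p = 0.643, adjusted 0.973) and rho = 0.00736 (exact permutation p = 0.982, adjusted 0.982). Without control mouse 1 and WTCPM+dex mouse 1, which hold the highest library numbers, r was 0.123 for P4ha3 and 0.368 for Mmp13. With 1 mouse left out, r ranged over -0.13 to 0.49 for P4ha3 and -0.23 to 0.37 for Mmp13. Both were lowest without WTCPM+dex mouse 4. With the library number as a covariate, limma called 0 genes in WTCPM+ros minus control, and the P4ha3 difference there was 1.24 ± 0.42 (SE). Because no other group holds numbers 1 to 4, that fit cannot separate rosoxacin from the library number, and nothing is read from it.

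**Figure D4:**
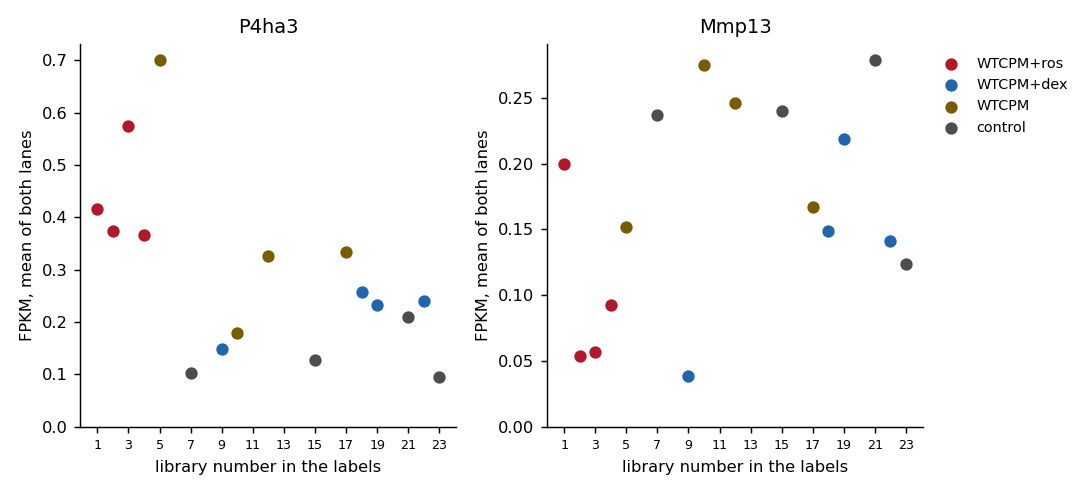
FPKM per mouse (mean of both lanes) of P4ha3 (left) and Mmp13 (right) against the library number in the labels, coloured by group. The 4 WTCPM+ros mice hold library numbers 1 to 4, and the other groups are spread over numbers 5 to 23.

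Within groups, P4ha3 and Mmp13 showed no detectable relation. It gave r = 0.00813 over 16 mice (exact permutation p = 0.973, adjusted over 3 relations 0.973) and rho = 0.194 (exact permutation p = 0.497, adjusted 0.919). Without WTCPM mouse 1 and WTCPM+ros mouse 2, the 2 mice with the highest P4ha3 level, r was 0.422. These need not be the mice farthest from their own group means. With 1 mouse left out, r ranged from -0.22 without WTCPM+dex mouse 4 to 0.25 without WTCPM mouse 1. The value near 0 thus depended on which mice were kept. With lanes listed at 0 left out, the r within groups was 0.43 (exact permutation p adjusted over 3 relations = 0.151). Over all 16 mice with the groups left in, the r of P4ha3 with Mmp13 was -0.281.

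The genes whose level followed each of the 2 most closely over the 16 mice were found among 784 named genes by Pearson r of log2(FPKM + 0.1), as a description with the same libraries on both sides. Differences between groups were left in this r. A like order of group medians therefore follows in part from the ranking and is no separate result. For P4ha3 these included Nwd2 (r = 0.702), Mtfr2 (0.691), Fam163b (0.69) and Cxcl2 (0.684). Cxcl2, which encodes a neutrophil chemokine, had medians of 0.378 FPKM in WTCPM+ros, 0.303 in WTCPM+dex, 0.506 in WTCPM and 0.144 in control, so like P4ha3 its lowest median was in control. For Mmp13 they were Kbtbd13 (r = 0.734), Wfdc16 (0.727), Tlr12 (0.717), Epb42 (0.67) and Tmem28 (0.648). Tlr12, a Toll-like receptor of the mouse, had medians of 0.449 FPKM in WTCPM+ros, 0.65 in WTCPM+dex, 0.738 in WTCPM and 1.01 in control, the same order as Mmp13.

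Other genes of collagen making and breakdown were taken from 8 lists of 153 genes. Of these, 27 have an Ensembl identifier of their own in the table and 12 averaged at least 0.1 FPKM, P4ha3 and Mmp13 among them. P4ha3 is the only 1 of 15 collagen hydroxylation genes with its own identifier, so the enzyme's other subunits and the lysyl hydroxylases are not analysed here. Of 23 matrix metalloproteinase genes 8 have one, and 4 averaged at least 0.1 FPKM. Of 10 collagen receptor and uptake genes none has one. The 15 genes below 0.1 FPKM include 4 listed at 0 in all 16 mice, namely the metalloproteinases Mmp1a, Mmp10 and Mmp20 and Gulo, which makes ascorbate. The highest of the 15 were Il6 at 0.0954 FPKM, the protease inhibitor gene A2m at 0.0857, and the fibrillar collagen genes Col24a1 at 0.0812 and Col11a1 at 0.0323.

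None of the 10 tested genes besides P4ha3 and Mmp13 passed limma's adjusted threshold in any of the 6 comparisons. Those with an unadjusted p under 0.05 numbered 2 of 10 in WTCPM minus control, 2 in WTCPM+ros minus WTCPM, 1 in each of WTCPM+dex minus WTCPM, WTCPM+ros minus control and WTCPM+dex minus control, and 0 in WTCPM+ros minus WTCPM+dex. Over all tested genes the share at an unadjusted p under 0.05 was 5.13% in WTCPM minus control, 15.7% in WTCPM+ros minus WTCPM, 5.38% in WTCPM+dex minus WTCPM, 19.3% in WTCPM+ros minus control, 4.98% in WTCPM+dex minus control and 20.7% in WTCPM+ros minus WTCPM+dex. The median log2 difference of the 10 was -0.07 for WTCPM minus control against 0.03 over all tested genes. It was 0.00 for WTCPM+ros minus WTCPM against -0.16, and -0.24 for WTCPM+dex minus WTCPM against 0.00. Against control it was -0.08 for WTCPM+ros and -0.18 for WTCPM+dex, where all tested genes had -0.11 and 0.02. For WTCPM+ros minus WTCPM+dex it was 0.11 against -0.15. In simulated data, 200 of 2749 genes were given a change of 1 on the log2 scale, up or down, in WTCPM minus control. The procedure recovered 31% of those 200, so changes of that size would often be missed.

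**Figure D5:**
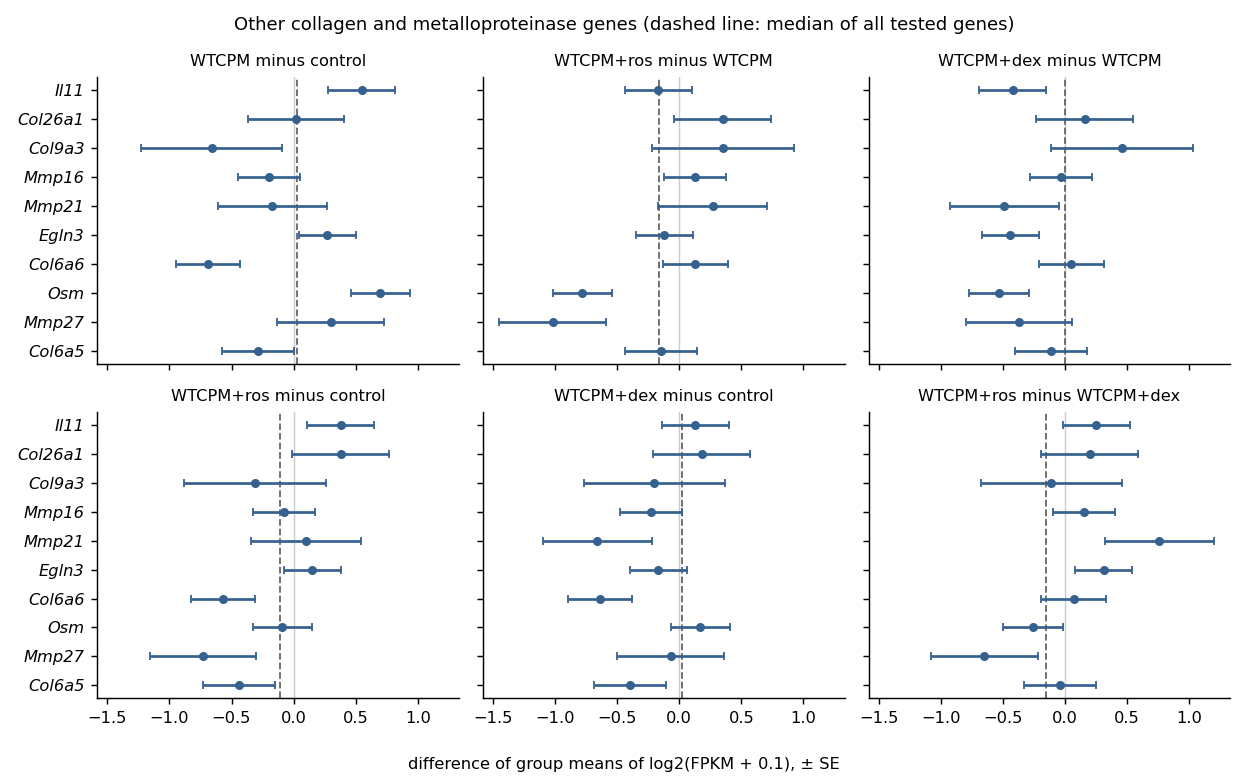
Difference between group means of log2(FPKM + 0.1), with bars of 1 SE from limma, for the 10 collagen, metalloproteinase, cytokine and oxygenase genes tested beside P4ha3 and Mmp13, 1 panel per comparison, with a dashed line at the median of all 2749 tested genes. None passed the adjusted threshold; Osm lies at 0.70 in WTCPM minus control and at -0.78 in WTCPM+ros minus WTCPM.

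Of 17 listed regulators of Mmp13 transcription, 3 have an identifier of their own, and 2 of these, Osm and Il11, averaged at least 0.1 FPKM. Runx2, the AP-1 genes, Il1b and Tnf are therefore not analysed here. Osm, which encodes oncostatin M, had 0.251, 0.255, 0.415 and 0.213 FPKM in WTCPM+ros and 0.48, 0.341, 0.294 and 0.31 FPKM in WTCPM+dex. It had 0.691, 0.5, 0.484 and 0.538 FPKM in WTCPM and 0.49, 0.22, 0.196 and 0.36 FPKM in control. All WTCPM mice lay above all WTCPM+ros mice and all WTCPM+dex mice, and 1 control mouse reached into the WTCPM range. Of all tested genes, 8.95% had every WTCPM+ros mouse below every WTCPM mouse, 2.33% had every WTCPM+dex mouse below them, and 0.4% had both. The log2 difference was -0.78 ± 0.24 (SE) for WTCPM+ros minus WTCPM (limma adjusted p = 0.124), -0.53 ± 0.24 for WTCPM+dex minus WTCPM (adjusted p = 0.911) and 0.70 ± 0.24 for WTCPM minus control (adjusted p = 0.672). Il11, which encodes interleukin 11, had medians of 0.166 FPKM in WTCPM+ros, 0.161 in WTCPM+dex, 0.199 in WTCPM and 0.112 in control. Its log2 difference for WTCPM minus control was 0.55 (limma adjusted p = 0.894). Il6 lay below the filter and reached 0.677 FPKM in 1 WTCPM+ros mouse, against at most 0.0656 in WTCPM+dex, 0.0395 in WTCPM and 0.131 in control.

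Of the other metalloproteinases, Mmp27 lies in the same gene cluster on chromosome 9 as Mmp13, at chr9:7571396-7581885. Its levels were 0.127, 0.33, 0 and 0 FPKM in WTCPM+ros, 0.104, 0.394, 0.215 and 0.087 in WTCPM+dex, 0.197, 0.261, 0.327 and 0.264 in WTCPM and 0.155, 0.117, 0.379 and 0.174 in control. Like Mmp13 it had its lowest median in WTCPM+ros, with 2 mice listed at 0, and its groups overlapped. The log2 difference for WTCPM+ros minus WTCPM was -1.02 ± 0.43 (SE, limma adjusted p = 0.24). Mmp16, a membrane-bound metalloproteinase, had medians of 0.347 FPKM in WTCPM+ros, 0.267 in WTCPM+dex, 0.251 in WTCPM and 0.366 in control. Mmp21 had medians of 0.257, 0.115, 0.155 and 0.198 FPKM in the same groups, and its largest log2 difference was 0.76 for WTCPM+ros minus WTCPM+dex (limma adjusted p = 0.356).

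The collagen chains that could be tested are minor ones. Col6a6, a chain of the beaded-filament collagen VI, had 0.138, 0.116, 0.0619 and 0.124 FPKM in WTCPM+ros, 0.09, 0.114, 0.0758 and 0.112 in WTCPM+dex, 0.126, 0.0805, 0.0827 and 0.0752 in WTCPM and 0.411, 0.146, 0.167 and 0.165 in control. Every mouse of the 3 dust groups lay below every control mouse, as for 0.109% of tested genes, while 1.16% lay so in WTCPM, 9.02% in WTCPM+ros and 1.05% in WTCPM+dex alone. Control mouse 1 stood apart from the other 3 by Dixon's criterion. The means of Col6a6 were 0.11 FPKM in WTCPM+ros, 0.0979 in WTCPM+dex and 0.091 in WTCPM, against 0.222 in control, so it passed the filter of 0.1 FPKM mainly through control, which favours a lower level in the dust groups. The log2 difference was -0.69 ± 0.26 (SE) for WTCPM minus control (limma adjusted p = 0.74), -0.57 ± 0.26 for WTCPM+ros minus control (adjusted p = 0.254) and -0.64 ± 0.26 for WTCPM+dex minus control (adjusted p = 0.882), and these share the 4 control mice. Its neighbour Col6a5 had medians of 0.103 FPKM in WTCPM+ros, 0.116 in WTCPM+dex, 0.14 in WTCPM and 0.133 in control. Col9a3, a chain of cartilage collagen IX, had medians of 0.264, 0.26, 0.219 and 0.352 FPKM in the same groups, and Col26a1 had 0.263, 0.176, 0.194 and 0.168 FPKM. Egln3, a prolyl hydroxylase that acts on hypoxia-inducible factor rather than on collagen, had medians of 0.418 FPKM in WTCPM+ros, 0.322 in WTCPM+dex, 0.476 in WTCPM and 0.406 in control.

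The cells that could carry these transcripts could be followed only in part. Of the marker lists for fibroblasts, macrophages, lung epithelium, mesothelium and lymphocytes, 0 genes have an identifier of their own, so the lung label was not checked against lung markers. Of 12 chondrocyte and osteoblast markers, cells known for high Mmp13 in cartilage and bone, 11 have one and 0 averaged 0.1 FPKM. Their summed level was 0.109 to 0.302 FPKM in WTCPM+ros, 0.0998 to 0.381 in WTCPM+dex, 0.0386 to 0.296 in WTCPM and 0.219 to 0.887 in control. Of 10 neutrophil markers 3 have one, and their sum was 0.651 to 1.37 FPKM in WTCPM+ros, 0.83 to 1.65 in WTCPM+dex, 0.366 to 0.599 in WTCPM and 0.272 to 0.873 in control. Of these 3 neutrophil markers, only Cxcr2 averaged at least 0.1 FPKM, while Elane and Ly6g lay below that. The part of these markers in the levels of P4ha3 and Mmp13 was not tested.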

How the data were processed

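Lung RNA of 16 mice was sequenced on 2 lanes each. The authors deposited FPKM per transcript in 1 table of 32 libraries, and the 32 files of single libraries equal it. The submitters' processing notes name StringTie 2.1.5, HISAT2 2.2.1, HISAT, R 4.0.4, SAMtools 1.12, FastQC and the build mm10; settings and annotation are not given in the sources. Depth per library is unknown, so precision was judged from mice and lanes. Whether the 4 mice of a group were handled separately is not stated, and p-values measure the spread between mice.

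FPKM was summed per Ensembl identifier and the lanes of a mouse were averaged. Symbols came from GENCODE M21, in which 24950 of 26305 identifiers matched with their version. Genes averaging at least 0.1 FPKM, 2749 in all, were fitted with limma 3.58.1 in R 4.3.3 (lmFit, contrasts.fit, eBayes with trend) on log2(FPKM + 0.1), 4 groups in 1 fit, with 6 comparisons, 2-sided, and Benjamini-Hochberg adjustment at 0.05. P4ha3 and Mmp13 get no p. Their means and SDs, though planned, are replaced by every value and the median, since 5 and 8 of their 32 lanes are listed at 0. The relations used exact permutation with scipy 1.17.1 in Python 3.11.15. The procedure was tested on simulated data, where 3.12% of the calls were false. The same mouse numbers in the labels were checked and did not pair mice.

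Members and lists were chosen with earlier results of these data known. Named are both members, every listed gene that averaged at least 0.1 FPKM, the 4 highest below that, and the 5 genes most like each member, predicted genes and antigen receptor segments left out. One of the genes most like P4ha3 is not reported here. Alternatives were other pseudocounts, filters and scalings, single lanes, the most abundant transcript, a library number covariate, a replicate block, the 2 compared groups alone, no trend, and each mouse left out. Leaving out lanes listed at 0 was added after seeing the data. Figures were drawn with matplotlib 3.10.9.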

Additional observations from a re-analysis of the deposited data

Results flagged for a closer look

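In 48 groups of 4 mice (the 12 tested genes in 4 groups each) the mouse at either end was set against the other 3 by Dixon's criterion at 95%, which compares the gap to the nearest mouse with the range of the group. Chance flags about 1 in 20 groups. Neither P4ha3 nor Mmp13 had such a mouse. Col6a5 in control mouse 1 had 0.49 FPKM, against 0.1 to 0.138 FPKM in the other 3 control mice. Col6a6 in the same mouse had 0.411 FPKM, against 0.146 to 0.167 FPKM in the other 3. Col6a6 in WTCPM mouse 1 had 0.126 FPKM, against 0.0752 to 0.0827 FPKM. Col26a1 in WTCPM+dex mouse 2 had 0.335 FPKM, against 0.163 to 0.186 FPKM. Col9a3 in WTCPM mouse 2 was listed at 0, against 0.202 to 0.237 FPKM in the other 3 WTCPM mice.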

How the results depend on the processing

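The P4ha3 difference kept its sign in every setting tried for WTCPM minus control, WTCPM+ros minus control, WTCPM+dex minus control and WTCPM+ros minus WTCPM+dex, and the Mmp13 difference did so for both drug groups against WTCPM and against control. Sizes moved with the pseudocount: at 1, P4ha3 was 0.28 for WTCPM minus control, 0.34 for WTCPM+ros minus control and 0.23 for WTCPM+ros minus WTCPM+dex, and Mmp13 was -0.14 for WTCPM+ros minus WTCPM and -0.15 for WTCPM+ros minus control. At 0.01, P4ha3 was 1.66 for WTCPM+ros minus control, and Mmp13 was -1.13 and -1.17. In lane 1 alone P4ha3 was 1.00 for WTCPM+ros minus WTCPM, 0.38 for WTCPM+dex minus WTCPM, 1.69 for WTCPM+ros minus control and 1.06 for WTCPM+dex minus control. In lane 2 alone P4ha3 was -0.99 for WTCPM+dex minus WTCPM, and Mmp13 was -0.68 for WTCPM minus control, -0.18 for WTCPM+ros minus WTCPM and -0.94 for WTCPM+dex minus control. With lanes listed at 0 left out, P4ha3 was 0.74 for WTCPM+ros minus control and 0.01 for WTCPM+dex minus control, and Mmp13 was -0.04 for WTCPM+dex minus control. The cause of these shifts was not tested.

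Counts of called genes moved more. WTCPM minus control (0 genes) gave 1 with pseudocount 1, lane 1 alone, the replicate block or no trend, 2 with pseudocount 0.01 or no filter, and 3 with the most abundant transcript. WTCPM+dex minus WTCPM (0) gave 1 with pseudocount 1 or no trend. WTCPM+dex minus control (1) gave 2 with pseudocount 0.01, TPM, lane 2 alone or no filter, and 0 with median-of-ratios scaling, quantile normalisation, lane 1 alone, the replicate block or 2 groups alone. WTCPM+ros minus WTCPM (15) gave 270 with TPM, 6 with quantile normalisation, 0 in lane 1, 3 with the library number or 2 groups alone, 5 with no filter and 37 with a mean of at least 0.3 FPKM. WTCPM+ros minus control (91) gave 21 with pseudocount 1, 260 with TPM, 44 with median-of-ratios scaling, 31 with quantile normalisation, 7 in lane 1, 16 in lane 2, 0 with the library number, 7 with no filter and 24 with 2 groups alone. WTCPM+ros minus WTCPM+dex (117) gave 57, 310, 38, 30, 3, 7, 0, 15 and 12 in those settings, and 68 with no trend. TPM moved the median of all genes to -0.46, -0.35 and -0.41 in these 3 comparisons. Higher and lower calls numbered 15 and 102 in WTCPM+ros minus WTCPM+dex, but 24 and 14 with median-of-ratios scaling and 4 and 306 with TPM. In WTCPM+ros minus control they numbered 18 and 73, but 20 and 24 and, with TPM, 7 and 253. In WTCPM+ros minus WTCPM they numbered 3 and 12, but 4 and 6 and, with TPM, 3 and 267. Of the 10 other pathway genes, 1 was called with TPM in WTCPM+ros minus WTCPM and 0 in the other settings and comparisons.

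Leaving out 1 mouse gave 0 to 1 calls in WTCPM minus control, 2 to 24 in WTCPM+ros minus WTCPM, 11 to 122 in WTCPM+ros minus control, 0 to 3 in WTCPM+dex minus control and 14 to 162 in WTCPM+ros minus WTCPM+dex. It left the P4ha3 difference between 1.08 and 1.34 for WTCPM+ros minus control and the Mmp13 difference between -0.91 and -0.59. For WTCPM+ros minus WTCPM the P4ha3 range was -0.01 to 0.50 and for WTCPM+dex minus WTCPM -0.74 to -0.23, both set by WTCPM mice 4 and 1. The Mmp13 range was -0.59 to -0.19 for WTCPM+dex minus WTCPM and -0.63 to -0.23 for WTCPM+dex minus control, nearest 0 without WTCPM+dex mouse 4, and -0.47 to -0.07 for WTCPM+ros minus WTCPM+dex, nearest 0 without WTCPM+dex mouse 3. The relation of P4ha3 with Mmp13 was -0.15 with pseudocount 1, 0.43 with lanes listed at 0 left out, and ranged over -0.22 to 0.25 with 1 mouse left out. That of the library number with P4ha3 was -0.07 with pseudocount 1 and ranged over -0.13 to 0.49, and that with Mmp13 over -0.23 to 0.37. Mice with the same number in the labels did not deviate together (correlations of -0.16 to 0.30, over 0.1 in 4 of 24 pairs, and 1 of 16 mice correlated best with its own number). With the replicate block the P4ha3 difference for WTCPM+ros minus control stayed 1.20, and 85 genes were called there and 103 in WTCPM+ros minus WTCPM+dex.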
